A study of Mus musculus with 4 samples.

Results

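The genes described are the ligands and receptors of the tumour necrosis factor (TNF) superfamily, taken from a table of H3K27me3 counts per gene window in mouse alveolar macrophages. They were found by gene symbol: all symbols that begin with Tnfsf or Tnfrsf and a number, and Tnf, Lta, Ltb, Ltbr, Fas, Fasl, Cd27, Cd40, Cd40lg, Cd70, Ngfr, Eda2r and Edar. This gave 45 of the 27095 genes in the table, of which 44 code for proteins, 17 of them ligands and 27 receptors. The other is Tnfsf13os, an RNA antisense to Tnfsf13 that the name rule also takes in. The assay was Cut&Tag, where an antibody against H3K27me3 brings a transposase to chromatin and the DNA nearby is cut and tagged. There were 4 libraries: 2 from Suz12 conditional knockout (cKO) and 2 from wild-type marrow chimeras, which the design text calls biological replicates. The hosts were lethally irradiated C57BL/6-Ly5.1 mice. Suz12 cKO hosts had received marrow that was 90% Suz12 cKO Ly5.2 and 10% wild-type Ly5.1, and wild-type hosts had received marrow that was 90% wild-type Ly5.2 and 10% wild-type Ly5.1. Both groups thus carry wild-type Ly5.1 donor marrow. Whether Ly5.1 cells or surviving host macrophages were removed in the sort, which Cre line deleted Suz12 and the age of the mice are details the labels and design text leave out.

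TNF superfamily ligands are mostly trimers on the surface of, or shed from, immune cells, and each binds one or a few receptors. Receptors with a death domain can start cell death through adaptors such as Fadd and Tradd. Many receptors, with or without a death domain, act through Traf adaptors and NF-κB. Decoy receptors bind ligand without signalling. Macrophages are a known source of Tnf itself, while many other members are best known from T cells, B cells, bone or skin. H3K27me3 is the repressive mark laid down by PRC2, of which Suz12 is an obligate subunit, and the study compared it between the genotypes.

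The Suz12 cKO libraries held 3331138 and 3567282 counts and the wild-type libraries 2592297 and 2142175, so the cKO libraries were the deeper ones. Suz12 itself had 11 and 10 counts in Suz12 cKO libraries and 8 and 10 in wild-type libraries. Its window spans the whole gene, and a count of the mark there is no test of whether the gene was deleted. Levels below are CPM (counts divided by the TMM-scaled library size, in the usual per-million unit) and CPM per kb of window. CPM are shares of each library, and a loss or gain common to all genes is invisible to them. As a check of the labelled cell type, marker lists were compared. The median level was 0.115 CPM per kb in cKO and 0.102 in wild type over 17 alveolar macrophage markers, 0.915 in cKO and 0.767 in wild type over 13 T and B lymphocyte markers, and 1.36 in cKO and 1.12 in wild type over 11 lung epithelial and endothelial markers. The mark was thus lowest at the macrophage list. The summed CPM of the lymphocyte list ran from 1261 to 1325 in cKO libraries and from 1219 to 1346 in wild-type libraries. Such sums are not scaled to window length, and Pax5 and Ebf1 made up most of this one. Pax5 averaged 656 CPM in cKO and 666 CPM in wild type, and Ebf1 457 in cKO and 441 in wild type. The lymphocyte gene Ms4a1 was at 0, in a window that lies wholly within others. The macrophage list summed to 80.6 to 96.0 CPM in cKO and 70.1 to 76.0 CPM in wild type. Plet1 was at 0, with 95.1% of its window overlapped. The epithelial and endothelial list summed to 1005 to 1017 CPM in cKO and 894 to 1018 CPM in wild type. Of the macrophage, lymphocyte and epithelial and endothelial markers, 8, 10 and 11 were tested. By edgeR's quasi-likelihood test 0 of them were called between genotypes, against 6.42% of all tested genes, and 1, a macrophage marker, had an unadjusted p below 0.05. The part of other cells in the values below was not tested.

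A window is the gene with 3 kb on each side, and reads in stretches shared by several windows were mostly not counted. Of the 45 members, 27 had a window that overlaps no other and 18 overlapped a neighbour, 7 of them wholly by the reference positions. Low values of overlapped genes are therefore uncertain. Cd27, Tnfrsf12a, Tnfsf12, Tnfsf13, Tnfsf13os and Tnfsf9 had 0 counts in all 4 libraries. A count of 0 allows up to 0.917 and 0.876 CPM in the cKO libraries and 1.16 and 1.37 CPM in the wild-type libraries (3 counts each, counting error only). The window of Tnfsf9 is overlapped by 78.6% and those of the other 5 wholly, so the mark at these genes was not measurable here.

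H3K27me3 stood at widely different levels over the family. Among the 27 members free of overlap, the mean over the 4 libraries ran from 0.0705 CPM per kb at Fas to 9.39 at Cd70, a 133-fold range. Their median was 0.766 CPM per kb, against 0.434 for all 10809 genes free of overlap. Of the 27, 11 (40.7%) stood above the value that the top 25% of those genes exceed (1.27 CPM per kb) and 6 (22.2%) above the value that the top 10% exceed (2.69). These 6 were Cd70, Tnfrsf13c, Cd40, Tnfsf11, Ngfr and Tnfrsf19.

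**Figure D1:**
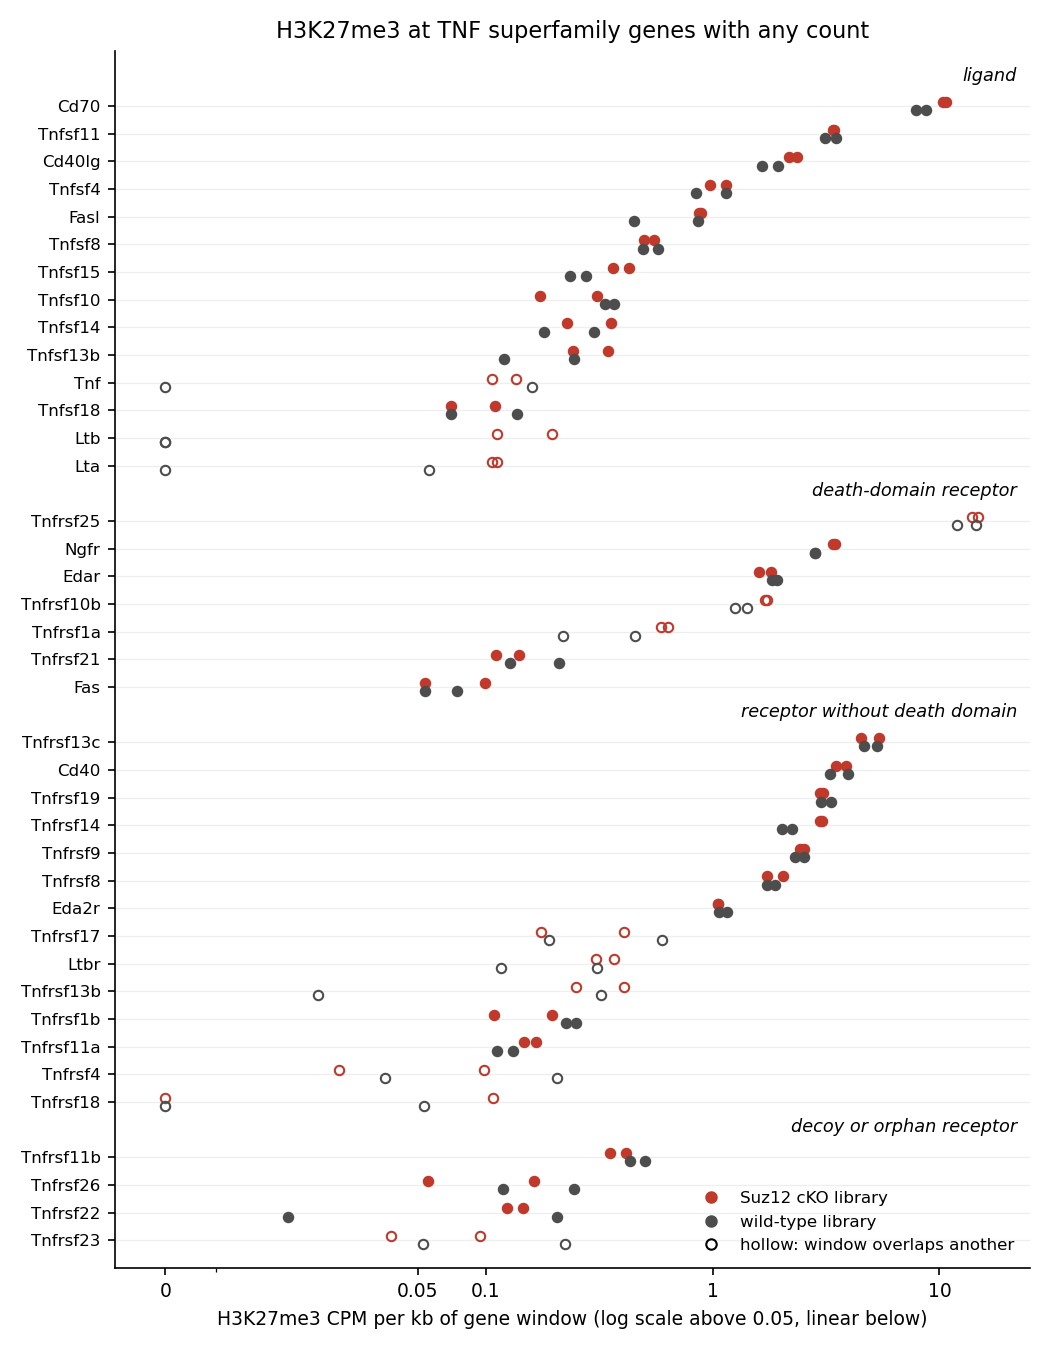
H3K27me3 level, in CPM per kb of gene window, of the 39 TNF superfamily genes with any count, by role. Each point is a library (Suz12 cKO above wild type in each row) and hollow points mark windows that overlap another gene's. The axis is logarithmic above 0.05 and linear below, and levels run from 0 to 14.8 CPM per kb.

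Among the ligands, Cd70, the ligand of the lymphocyte costimulatory receptor Cd27, was the most marked. It had 10.3 and 10.6 CPM per kb in cKO libraries and 8.72 and 7.91 in wild-type libraries, and stood above the level of 97.5% of the 16752 genes tested. Tnfsf11, the RANK ligand that drives osteoclast formation, had 3.41 and 3.43 CPM per kb in cKO and 3.50 and 3.14 in wild type. Cd40lg, the T cell ligand of Cd40 on the X chromosome, was next, with 2.17 and 2.37 CPM per kb in cKO and 1.65 and 1.94 in wild type. These 3 levels did not overlap in any library. Tnfsf4, the OX40 ligand, had 0.978 and 1.15 CPM per kb in cKO and 1.15 and 0.844 in wild type. Fasl, the death ligand of cytotoxic lymphocytes, had 0.886 and 0.867 in cKO and 0.449 and 0.862 in wild type. The ranges of Tnfsf4 and Fasl overlapped, wild-type library 1 being low for Fasl. Tnfsf8, the CD30 ligand, and Tnfsf15, which acts on T cells through Tnfrsf25, stood at 0.525 and 0.395 CPM per kb in cKO and 0.533 and 0.255 in wild type on average.

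The other ligands with counts stood lower. Tnfsf10, the death ligand TRAIL, had 0.310 and 0.174 CPM per kb in cKO and 0.366 and 0.336 in wild type. Tnfsf13b, the B cell survival factor BAFF, had 0.242 and 0.347 CPM per kb in cKO and 0.121 and 0.246 in wild type. Tnfsf14, or LIGHT, averaged 0.292 CPM per kb in cKO and 0.240 in wild type, and Tnfsf18, the GITR ligand, 0.0903 and 0.104. The ranges of Tnfsf10, Tnfsf13b and Tnfsf14 overlapped each other. Tnf had only 3 and 4 counts in cKO libraries and 0 and 3 in wild-type libraries. Lta, which encodes lymphotoxin α, had 3 and 3 counts in cKO and 0 and 1 in wild type, and Ltb, its partner in the membrane form, 5 and 3 counts in cKO and 0 and 0 in wild type. These 3 genes lie side by side, with 90.1%, 57.6% and 37.7% of the windows of Tnf, Lta and Ltb overlapped. That leaves 0.856 kb of the Tnf window, 3.47 kb of that of Lta and 4.86 kb of that of Ltb unshared, and the few counts were at or near the limit that 0 counts allow.

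Death-domain receptors spanned most of the family's range. Tnfrsf25, the receptor of Tnfsf15 on T cells, had the highest level of all members, with 14.8 and 13.9 CPM per kb in cKO and 14.5 and 11.9 in wild type. By reference positions its window lies wholly within those of Plekhg5 and Espn, yet it held 254 to 472 counts per library, so its value and even its window are uncertain. Ngfr, the p75 neurotrophin receptor of nerve and stem cells, had 3.39 and 3.45 CPM per kb in cKO and 2.82 and 2.82 in wild type. Edar, the ectodysplasin receptor of hair and tooth placodes, had 1.61 and 1.81 CPM per kb in cKO and 1.92 and 1.82 in wild type. Tnfrsf10b, the mouse TRAIL death receptor, averaged 1.71 CPM per kb in cKO and 1.34 in wild type, with 23.6% of its window overlapped. The other 3 stood lower. Tnfrsf1a, the main receptor of Tnf, had 0.636 and 0.592 CPM per kb in cKO and 0.455 and 0.220 in wild type, with 37.6% of its window overlapped. Tnfrsf21, or DR6, averaged 0.126 CPM per kb in cKO and 0.169 in wild type. Fas, which triggers apoptosis, had 14 and 8 counts in cKO libraries and 6 and 7 in wild-type libraries over a window of 43.1 kb, the lowest level of any member free of overlap.

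Of 16 receptors without a death domain, 9 were free of overlap, and 6 of those stood above 1.27 CPM per kb. Tnfrsf13c, the BAFF receptor of B cells, had 5.41 and 4.49 CPM per kb in cKO and 5.28 and 4.64 in wild type. Cd40, the costimulatory receptor of B cells, dendritic cells and macrophages, had 3.89 and 3.49 CPM per kb in cKO and 3.96 and 3.31 in wild type. At both genes replicate 2 was the lower in each genotype, and the genotypes overlapped. Tnfrsf19, a receptor of hair follicle and intestinal stem cells, had 2.96 and 3.08 CPM per kb in cKO and 3.33 and 2.99 in wild type, a range that overlapped those of Cd40 and Tnfsf11. Tnfrsf14, or HVEM, the receptor of Tnfsf14, had 2.96 and 3.03 CPM per kb in cKO and 2.03 and 2.24 in wild type. The T cell receptors Tnfrsf9 (4-1BB) and Tnfrsf8 (CD30) averaged 2.48 and 1.89 CPM per kb in cKO and 2.42 and 1.81 in wild type. Eda2r, an ectodysplasin receptor on the X chromosome, had 1.06 and 1.06 CPM per kb in cKO and 1.07 and 1.16 in wild type.

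The remaining receptors without a death domain had low values, some of them in overlapped windows. Tnfrsf1b, the second Tnf receptor, had 0.196 and 0.108 CPM per kb in cKO and 0.249 and 0.226 in wild type. Tnfrsf11a, or RANK, the osteoclast precursor receptor of Tnfsf11, had 0.167 and 0.148 CPM per kb in cKO and 0.132 and 0.113 in wild type, a level above that of 16.6% of tested genes. Ltbr, the lymphotoxin β receptor, averaged 0.338 CPM per kb in cKO and 0.213 in wild type, with 42.2% of its window overlapped. Tnfrsf13b (TACI) and Tnfrsf17 (BCMA), both receptors of the B lineage, averaged 0.328 and 0.290 CPM per kb in cKO and 0.176 and 0.394 in wild type, on 38 and 46 counts in all, in windows that are overlapped in part. Tnfrsf4 (OX40) and Tnfrsf18 (GITR), next to each other on chromosome 4, had 9 and 4 counts in all. Their windows are overlapped by 90.9% and wholly, so their mark could hardly be measured.

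Decoy and orphan receptors averaged at most 0.426 CPM per kb over the 4 libraries. That highest value, at Tnfrsf11b, was near the median of 0.434 of all genes free of overlap. Tnfrsf11b, the soluble decoy osteoprotegerin, had 0.415 and 0.354 CPM per kb in cKO and 0.504 and 0.433 in wild type. Tnfrsf22 and Tnfrsf23, the mouse decoy receptors of TRAIL, and the orphan Tnfrsf26 lie in a row on chromosome 7 and had 28, 30 and 41 counts in all 4 libraries together. They are close copies of each other, so reads could be split between them and their values are uncertain. Tnfrsf22 had 9 and 8 counts in cKO libraries and 10 and 1 in wild-type libraries, which overlapped.

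Ligand and receptor were marked unequally in each of the listed pairs that could be compared. Of 22 pairs listed, 7 had both windows free of overlap. In 4 of these the receptor was above the ligand in all 4 libraries, and in the other 3 the ligand was above the receptor. Tnfrsf13c averaged 4.95 CPM per kb, against 0.239 for its ligand Tnfsf13b, and Tnfrsf14 2.56, against 0.266 for Tnfsf14. Tnfrsf8 and Cd40 likewise stood above Tnfsf8 and Cd40lg. Tnfsf11, at 3.37 CPM per kb, stood above both of its receptors, Tnfrsf11a at 0.140 and the decoy Tnfrsf11b at 0.426, and Fasl at 0.766 above Fas at 0.0705. These are averages over the 4 libraries, given as a description. How often unpaired genes differ in this way was not computed. The list is not complete, and among others it leaves out Tnfsf10 with its decoy Tnfrsf22, both free of overlap. Their levels ran from 0.174 to 0.366 and from 0.0242 to 0.205 CPM per kb, which overlapped.

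**Figure D2:**
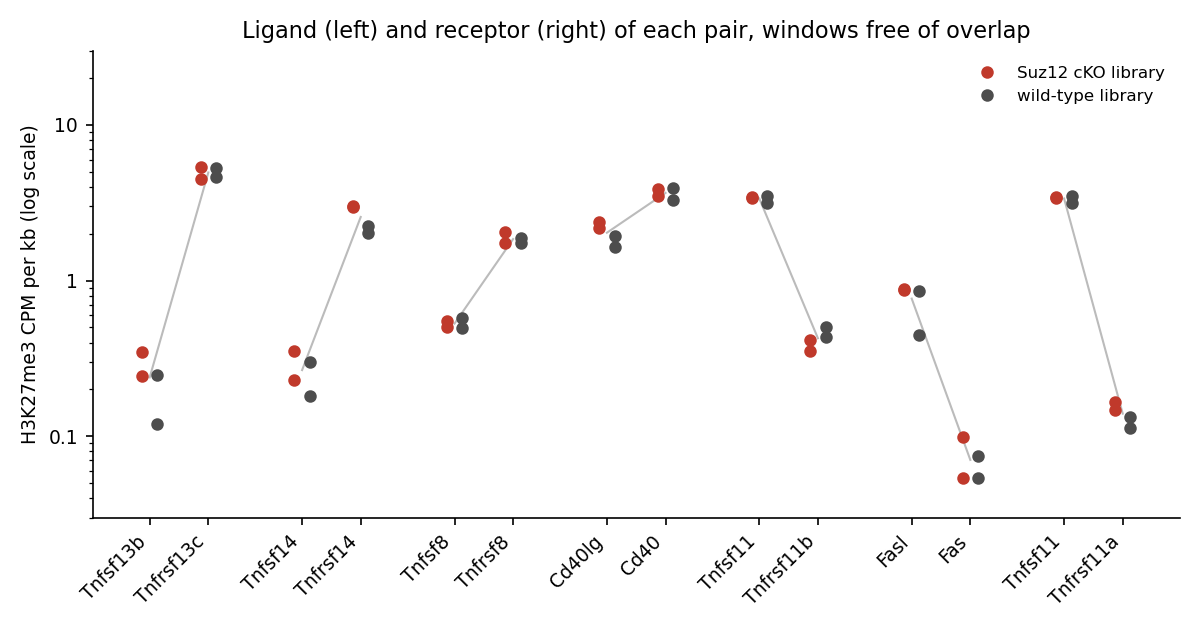
H3K27me3 level (CPM per kb, log scale) of ligand and receptor in the 7 listed pairs whose windows overlap no other. Each point is a library, Suz12 cKO left of wild type, and grey lines join the means. In 4 pairs the receptor is higher and in 3 the ligand is, in all 4 libraries.

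Some members that lie next to each other differed widely in level. With a gap of at most 500 kb between genes, 24 members fell into 9 clusters. On chromosome 17, Cd70 (57145997 to 57149777 in GRCm38, the mm10 assembly) lies 39.7 kb from Tnfsf14 and 38.2 kb from Tnfsf9. Cd70 averaged 10.5 CPM per kb in cKO and 8.32 in wild type, and Tnfsf14 0.292 in cKO and 0.240 in wild type. On chromosome 4, Tnfrsf8 (145267132 to 145315164) lies 20.3 kb from Tnfrsf1b (145212368 to 145246870). Tnfrsf8 averaged 1.89 CPM per kb in cKO and 1.81 in wild type, and Tnfrsf1b 0.152 in cKO and 0.238 in wild type. On chromosome 1, Tnfsf18 stood at 0.0903 CPM per kb in cKO and 0.104 in wild type between Tnfsf4 and Fasl, both of which were higher in all 4 libraries. The chromosome 7 receptors, and the overlapped genes of chromosomes 6, 11 and 17 around Ltbr, Tnfsf13 and Tnf, averaged at most 0.475 CPM per kb.

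**Figure D3:**
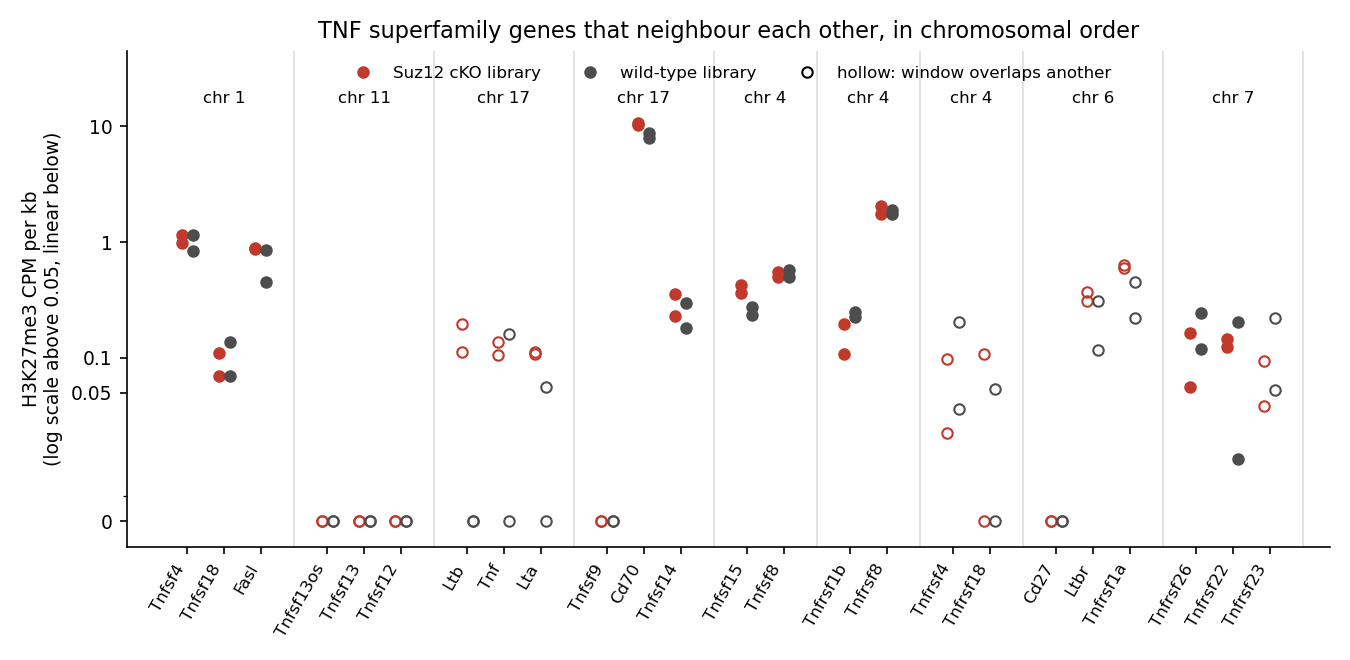
H3K27me3 level (CPM per kb) of the 24 members that lie within 500 kb of another, in chromosomal order, on an axis that is logarithmic above 0.05 and linear below. Each point is a library, Suz12 cKO left of wild type, and hollow points mark overlapped windows. Cd70 stands far above Tnfsf14, and Tnfrsf8 above Tnfrsf1b.

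Promoter CpG content and the level of the mark showed no clear order in this family. PRC2 in mammals is known to gather at CpG islands, so CpG dinucleotides were counted in the 250 bases before each annotated start in the RefSeq promoter table of GRCm38.p6. The table held 38 entries for 34 members. No entry was matched for Cd40, Cd40lg, Cd70, Tnfrsf10b, Tnfrsf11b, Tnfrsf22, Tnfrsf26, Tnfsf12, Tnfsf4, Tnfsf9 and Tnfsf13os. The entries had a median of 8 CpGs, against 6 over all 32851 entries. Over the 20 matched members free of overlap, Spearman's rho between CpG count and mean CPM per kb was −0.18, a description of 20 genes that share the same libraries. The 10 with the higher levels had a median of 8 CpGs and the other 10 a median of 7. A window covers the whole gene, so these counts do not show where in it the mark lay.

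The promoters of 4 members are shown, each as the 250 bases before the start in that table, 5′ to 3′ on the gene's own strand with every CpG in capitals. The first 2 are a ligand and its receptor that differed widely in level, Tnfsf11 and Tnfrsf11a. The other 2 are the chromosome 4 neighbours Tnfrsf8 and Tnfrsf1b, which have the same CpG count.
Tnfsf11, chr14:78308044-78308293, minus strand: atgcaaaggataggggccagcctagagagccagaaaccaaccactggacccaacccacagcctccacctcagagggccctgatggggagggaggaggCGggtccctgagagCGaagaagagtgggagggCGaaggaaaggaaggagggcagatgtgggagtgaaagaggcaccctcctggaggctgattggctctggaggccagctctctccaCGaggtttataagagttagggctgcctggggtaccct
Tnfrsf11a, chr1:105780473-105780722, plus strand: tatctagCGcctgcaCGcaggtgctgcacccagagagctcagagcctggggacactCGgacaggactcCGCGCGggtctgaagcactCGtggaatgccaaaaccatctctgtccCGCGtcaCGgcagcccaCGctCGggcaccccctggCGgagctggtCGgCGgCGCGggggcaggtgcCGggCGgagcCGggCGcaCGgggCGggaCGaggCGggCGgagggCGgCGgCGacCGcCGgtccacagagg
Tnfrsf8, chr4:145315165-145315414, minus strand: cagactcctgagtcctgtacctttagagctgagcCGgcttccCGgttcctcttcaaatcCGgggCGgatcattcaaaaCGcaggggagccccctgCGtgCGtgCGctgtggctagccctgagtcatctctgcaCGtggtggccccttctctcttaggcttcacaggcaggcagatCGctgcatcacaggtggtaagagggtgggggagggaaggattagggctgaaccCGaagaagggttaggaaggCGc
Tnfrsf1b, chr4:145246871-145247120, minus strand: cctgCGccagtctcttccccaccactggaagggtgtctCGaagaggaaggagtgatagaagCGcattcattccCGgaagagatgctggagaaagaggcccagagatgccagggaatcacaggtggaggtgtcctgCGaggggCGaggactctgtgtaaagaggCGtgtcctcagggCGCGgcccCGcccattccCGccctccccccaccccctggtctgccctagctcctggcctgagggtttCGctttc

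The Tnfrsf11a promoter held 31 CpGs, a count that 5.19% of entries reach, and its gene averaged 0.140 CPM per kb. That of Tnfsf11 held 4, a count that 62.2% of entries reach, and its gene averaged 3.37 CPM per kb. Tnfrsf8 and Tnfrsf1b each held 12 (reached by 33.5% of entries), and their genes averaged 1.85 and 0.195 CPM per kb.

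**Figure D4:**
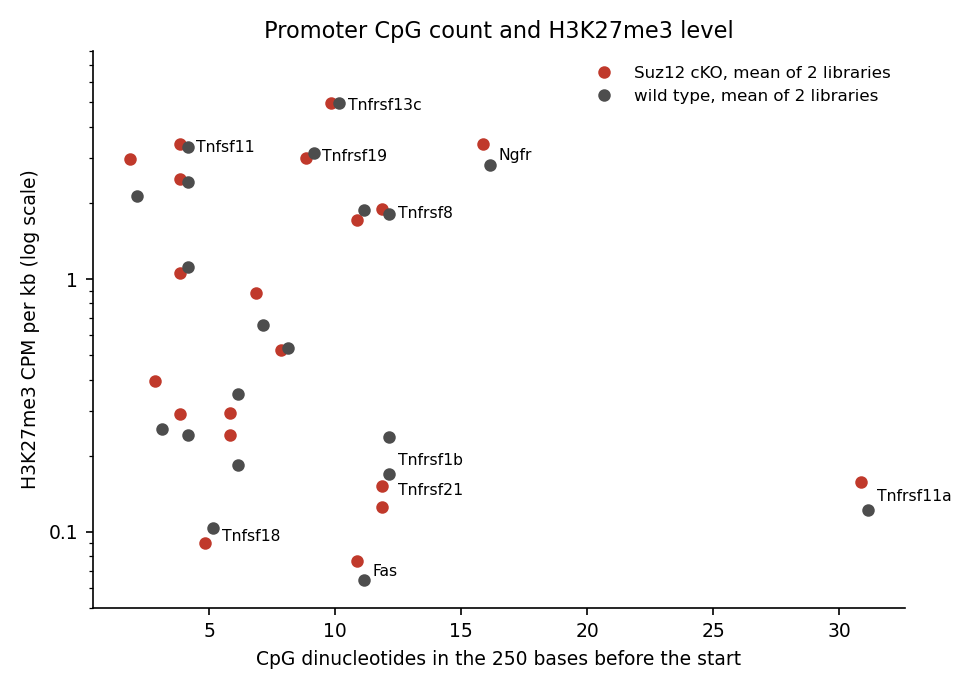
CpG dinucleotides in the 250 bases before the start (for genes with 2 starts, the one with more) and H3K27me3 level (CPM per kb, log scale) of 20 members free of overlap. Points are means of the 2 libraries of a genotype, Suz12 cKO left of wild type at each count. Tnfrsf11a, with 31 CpGs, lies near the bottom, and Tnfsf11, with 4, near the top.

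No member was called as changed between Suz12 cKO and wild-type macrophages. Of the 45 members, 29 passed the count filter and 16 did not, 6 with 0 counts and 10 with 4 to 35 in all. Members were compared with edgeR's quasi-likelihood test fitted over all 16752 genes that passed, and a gene was called at a Benjamini-Hochberg adjusted p below 0.05. Of the 29, 0 were called, while 6.42% of all tested genes were. The smallest adjusted p among members was 0.113. DESeq2's Wald test gave an adjusted p for 18 of 39 members with a p and left the other 21 without one. It called 0 of those 18, against 3.76% of all genes with an adjusted p, and 0 of the 39 had an unadjusted p below 0.05, against 5.7% of all genes with a p. With edgeR, 4 of the 29 had an unadjusted p below 0.05 and a higher level in cKO (13.8%, against 10.3% of all tested genes), and 0 had one with a lower level (against 8.26%). Both cKO libraries stood above both wild-type libraries at 9 members (31.0%, against 23.8% of tested genes) and below both at 5 (17.2%, against 23.8%). The log2 fold change, cKO over wild type, was positive for 18 members (62.1%, against 48.3% of all tested genes) and negative for 11. Its median was 0.06, against −0.01 over all tested genes. Other scalings moved this split: 14 were positive with upper-quartile factors, where the median of all genes was −0.10, and 23 after housekeeping scaling, where it was 0.23.

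**Figure D5:**
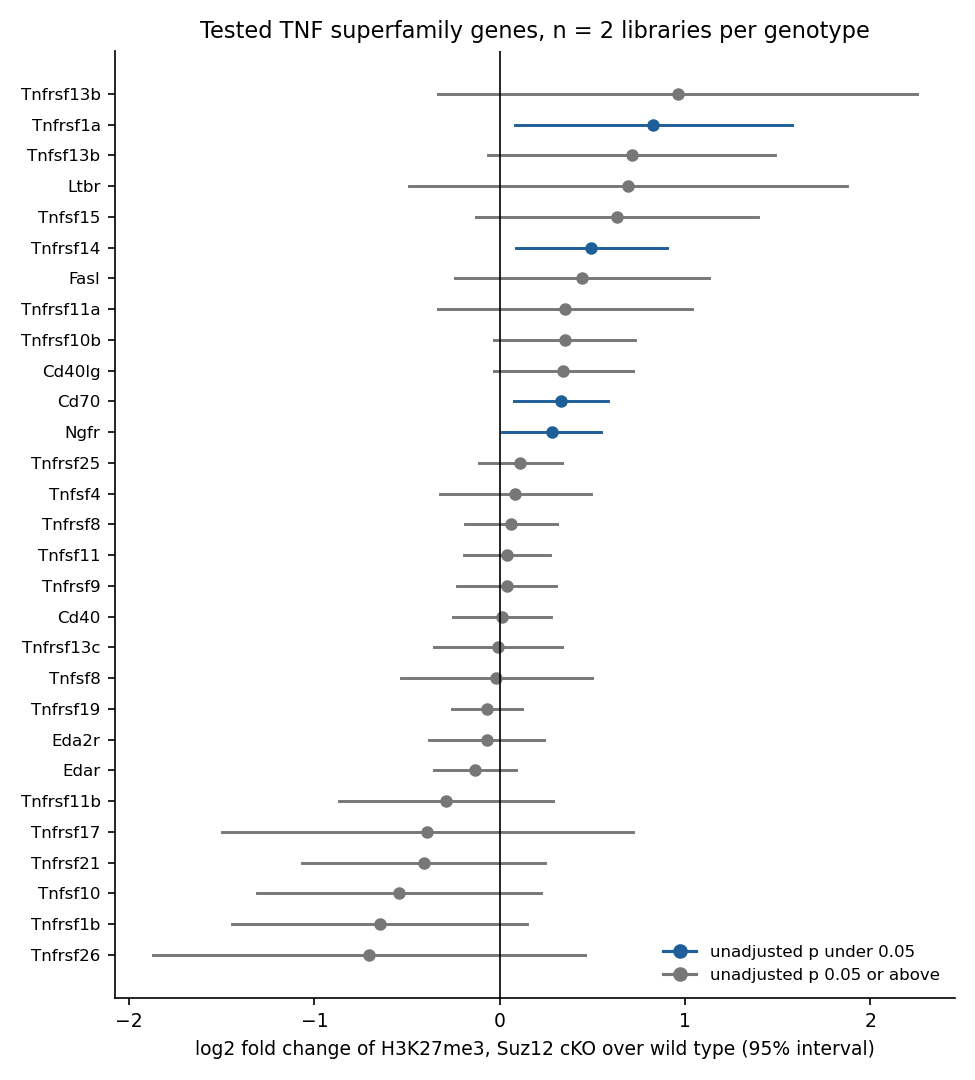
log2 fold change of H3K27me3, Suz12 cKO over wild type, with its 95% interval, for the 29 tested members in order of size. Blue marks the 4 genes with an unadjusted p below 0.05, whose intervals lie above 0, and no gene passed after adjustment.

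The 4 members with the lowest unadjusted p were Cd70, Tnfrsf14, Tnfrsf1a and Ngfr. Cd70 had 101 and 104 CPM in cKO libraries and 85.3 and 77.4 CPM in wild-type libraries. The genotypes did not overlap, and the log2 fold change was 0.33 ± 0.13 (SE, unadjusted p = 0.0111, edgeR adjusted p = 0.113). Tnfrsf14 had 35.2 and 35.9 CPM in cKO libraries and 24.0 and 26.6 CPM in wild-type libraries, again without overlap. Its log2 fold change was 0.49 ± 0.21 (edgeR adjusted p = 0.148). Tnfrsf14 was the 1 member called under any alternative, with housekeeping scaling (0.74, edgeR adjusted p = 0.0431). That scaling rests on 50 housekeeping genes, of which only 10 passed the count filter. The 50 summed to 128 to 149 CPM in cKO libraries and 162 to 166 CPM in wild-type libraries. Within these sums the X chromosome genes Hprt and Pgk1 averaged 38.8 and 31.8 CPM in cKO and 49.3 and 29.7 CPM in wild type. Over 12 alternatives the adjusted p of Tnfrsf14 ran from 0.0431 to 0.576. Ngfr had 84.4 and 85.9 CPM in cKO libraries and 70.2 and 70.1 CPM in wild-type libraries, again without overlap. These rest on 276 and 294 counts in cKO and 181 and 153 in wild type. Close values of 2 libraries do not measure the spread. Its log2 fold change was 0.28 ± 0.14 (edgeR adjusted p = 0.241). Tnfrsf1a had 11.9 and 11.1 CPM in cKO libraries and 8.53 and 4.12 CPM in wild-type libraries, where library 2 was low. Its log2 fold change was 0.83 ± 0.38 (edgeR adjusted p = 0.203), on 108 counts in all. Without wild-type library 1 it was 1.48 (edgeR adjusted p = 0.0766), and without wild-type library 2 it was 0.44 (edgeR adjusted p = 0.716). The cKO libraries are the deeper ones, and the part of depth in these values was not tested.

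For the strongly marked members the intervals were narrow. Cd40 averaged 81.2 ± 6.23 CPM in cKO and 80.0 ± 10.2 CPM in wild type (SD, n = 2 each), and its log2 fold change was 0.01 with a 95% interval of −0.25 to 0.28. Tnfsf11 averaged 125 ± 0.587 CPM in cKO and 121 ± 9.22 CPM in wild type, with an interval of −0.19 to 0.27. Tnfrsf19, the member with the most counts, averaged 269 ± 7.34 CPM in cKO and 282 ± 21.3 CPM in wild type, with an interval of −0.26 to 0.12. For Tnfrsf13c the interval was −0.35 to 0.33, for Tnfrsf25 −0.11 to 0.34 and for Edar −0.35 to 0.09. Of the 29 members, 17 had an interval that lay wholly within a 2-fold change either way. For 10 members it lay within 0.5 either way on the log2 scale. The same shares over all tested genes were not computed, and a change common to all genes would not show in these values.

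Among little marked members the fold changes were larger and their errors wider. Tnfrsf13b had 17 and 11 counts in cKO libraries and 1 and 9 in wild-type libraries, and a log2 fold change of 0.96 ± 0.66 (SE), with a 95% interval from −0.33 to 2.25. Its value rested on wild-type library 1: it was 0.03 without that library and 3.32 without wild-type library 2. Tnfsf13b stood at 0.71 ± 0.39 and Ltbr at 0.69 ± 0.60, on 100 and 43 counts in all. Without wild-type library 1 these were 0.27 for Tnfsf13b and 0.13 for Ltbr, and without wild-type library 2 they were 1.29 for Tnfsf13b and 1.52 for Ltbr. In the other direction, Tnfrsf26 stood at −0.70 ± 0.59 and Tnfrsf1b at −0.65 ± 0.40. Tnfrsf1b had 7.95 and 4.38 CPM in cKO libraries and 10.1 and 9.16 CPM in wild-type libraries, which did not overlap. Leaving out a library gave −1.64 to −0.11 for Tnfrsf26 and −1.12 to −0.27 for Tnfrsf1b. Tnfsf10 stood at −0.54 ± 0.39 (−1.01 without cKO library 1 and −0.18 without cKO library 2) and Tnfrsf11a at 0.35 ± 0.35. The 95% intervals of these 7 members included 0.

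By role, the 9 tested ligands had a median log2 fold change of 0.33 (7 positive, 2 negative), the 6 tested death-domain receptors 0.20 (4 and 2), the 12 tested receptors without one 0.03 (7 and 5) and the 2 tested decoy or orphan receptors −0.50 (0 and 2). None of these groups held a called gene. Over all tested genes, 48.3% were positive, and differences between the roles were not tested.

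Most genes for the proteins that carry the signal inside the cell had little H3K27me3 in either genotype. A list of 45 such genes held Traf adaptors, death-domain adaptors and effectors, ubiquitin enzymes, kinases, and NF-κB factors with their inhibitors. The median level of its 21 genes free of overlap was 0.134 CPM per kb. It was 0.766 for the 27 superfamily genes free of overlap and 0.434 for all genes free of overlap. Of the 21, 4 stood above 1.27 CPM per kb, which 25% of all genes free of overlap exceed. Only these 4 stood above the median of 0.434. These 4, named after their values were seen, were Traf1, Edaradd, Xiap and Tab3. Traf1 is an adaptor of Tnfrsf1b and other receptors, and Edaradd the adaptor of Edar. Xiap is a caspase inhibitor and Tab3 a partner of the kinase Map3k7. Xiap and Tab3 lie on the X chromosome, as do the members Cd40lg and Eda2r. The housekeeping genes Hprt and Pgk1, also on X, averaged 1.11 and 1.36 CPM per kb. The median of 11 housekeeping genes free of overlap was 0.0970. The part of the X chromosome in these levels was not tested. Traf1 averaged 2.99 CPM per kb in cKO and 3.10 in wild type, and Edaradd 1.53 in cKO and 1.30 in wild type. The superfamily genes Eda, which encodes ectodysplasin, and Relt, which the name rule leaves out, brought the list to 47. Of these, 31 were tested by edgeR and 0 were called in either direction, against 6.42% of all tested genes. DESeq2's Wald test called 0 of the 47, against 3.76% of all genes with an adjusted p. To how many of the 47 DESeq2 gave an adjusted p was not counted. Of the 31, 0 had an unadjusted p below 0.05 by edgeR with a higher level in cKO, against 10.3% of all tested genes. With a lower level there were 2, against 8.26%. The 2 were Tab1, a partner of Map3k7 (log2 fold change −1.12 ± 0.50 SE, edgeR adjusted p = 0.184), and Casp8, the initiator caspase of death receptors (−1.10 ± 0.51, edgeR adjusted p = 0.207). The Tab1 value was −2.08 without cKO library 1 and −0.53 without cKO library 2. The gene of lowest p was Traf5 in the Traf list (0.28 ± 0.41), Rbck1, a subunit of the linear ubiquitin ligase, in the ubiquitin list (0.98 ± 0.55), and Nfkb1, which encodes p105 and p50, in the NF-κB list (−0.50 ± 0.31). Nfkb1 had 51 and 21 counts in cKO libraries and 40 and 33 in wild-type libraries, and was called as lower in cKO when cKO library 1 was left out (−1.31, edgeR adjusted p = 0.0478), while its value was 0.03 without cKO library 2. The Traf5 value was −0.23 without wild-type library 1 and 1.00 without wild-type library 2. Eda, also on the X chromosome, stood at 1.36 CPM per kb in cKO and 1.28 in wild type, with a log2 fold change of 0.08 ± 0.09.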

How the data were processed

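The authors deposited whole-number read counts of the 4 libraries over 27095 windows, named by Entrez ID and given with a length in bp. The submitters' processing notes name mm10 and featureCounts. No source used here gives the aligner, the handling of duplicates or the counting options. Per the labels' protocols, each library was made with 0.5 µg of anti-H3K27me3 antibody, and per the design text from 100000 cells, read as pairs of 36 bp. Groups and replicate numbers came from the sample titles.

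From these deposited counts, symbols were taken from the GRCm38.p6 RefSeq table (25204 IDs, 93.0%). Window lengths equalled the gene span plus 3 kb on each side for 11527 genes, and overlaps were computed from such windows, so they are approximate where lengths differ, as for Tnfrsf13b and Tnfrsf14. Of 2444 windows wholly within others, 67.1% had 0 counts in all libraries, against 1.28% of 10809 windows free of overlap.

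Genotype was tested with edgeR 4.0.16 under R 4.3.3 (filterByExpr, TMM, estimateDisp, glmQLFit and glmQLFTest) over all genes. The standard error of a log2 fold change is its size over the square root of F, and 95% intervals use the fit's degrees of freedom. The test was tried on simulated counts of the cKO and wild-type libraries (16064 genes), drawn at the fitted trend of dispersion. It called 65% of 2-fold and 89% of 3-fold changes, with 5 false calls among 159. The changes were placed only in genes above a set mean count. These shares thus do not cover tested members with fewer counts, such as Tnfrsf13b. DESeq2 1.42.0 was an alternative. Replicates differed beyond sampling noise (chi-square per degree of freedom 1.79 for cKO and 1.94 for wild type), so none was a copy, and p-values measure the spread between these samples.

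The members and gene lists were chosen with earlier results of these data known. Named genes were the 8 most and 4 least marked tested members, the 6 of largest fold change, any called, a fixed set of well-known members, and the gene of lowest p in each pathway list, and the remaining members are given by level.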

Additional observations from a re-analysis of the deposited data

How the results depend on the processing

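The count of 0 called members held under 11 of 12 alternatives and became 1, Tnfrsf14, with scaling to housekeeping genes. The count of 0 called pathway genes was 0 to 1 when a library was left out, the 1 being Nfkb1 without cKO library 1. Over all genes the 1076 calls fell to 367 by DESeq2's Wald test, and ranged from 426 to 945 when a library was left out: 589 without cKO library 1, 426 without cKO library 2, 945 without wild-type library 1 and 745 without wild-type library 2. With housekeeping scaling, 1029 of 1094 calls were gains, with upper-quartile factors 494 of 1013 and with library totals alone 597 of 1072, against 747 of 1076 in the report; by DESeq2 322 of 367 were.

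Of 254 log2 fold changes of 22 named members under the alternatives, 234 kept their direction and their side of the threshold, 1 passed it (Tnfrsf14) and 19, at 7 members, changed sign, all within 0.23 of 0 and none called. For Cd40 and Tnfsf11, library totals gave −0.0397 and −0.0143, upper-quartile factors −0.0695 and −0.044, and a mean count of at least 50 gave −0.0377 and −0.0122. Housekeeping scaling gave 0.18 for Eda2r, 0.12 for Edar, 0.23 for Tnfrsf13c and 0.18 for Tnfrsf19. For Tnfrsf13c, no count filter gave 0.0093 and DESeq2's test 0.012. Leaving out a library gave −0.0946 to 0.163 for Cd40, −0.1422 to 0.1241 for Tnfrsf13c, −0.1322 to 0.019 for Tnfrsf19, −0.0072 to 0.2725 for Tnfrsf25 and −0.0219 to 0.1296 for Tnfsf11. The cause of these shifts was not tested.

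Replicates with the same number did not deviate together (correlation 0.00844), so no pairing showed in the counts. Whether the libraries were made in pairs cannot be told from this. With replicate number as a block, 0 members, 0 pathway genes and 1039 genes in all were called. Where a library was left out, the remaining library of that genotype was assumed to vary like the other genotype's. The 16 untested members had at most 35 counts in all, and whether depth or overlap of windows kept them low was not tested.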

Other observations

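Although no member was called, some of the genes whose windows overlap a member's were. Of 20 such neighbours 12 were tested and 3 were called, against 6.42% of all tested genes, and they are named here after their values were seen. Espn, which encodes an actin-bundling protein of hair cells and lies beside Tnfrsf25, averaged 306 CPM in cKO and 214 CPM in wild type, a log2 fold change of 0.52 ± 0.10 (SE, edgeR adjusted p = 2.49e-05). It was called under each of the 12 alternatives run. Tnfrsf25 itself stood at 0.11 ± 0.12 (edgeR adjusted p = 0.669). The difference between the 2 genes was not tested.

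Osbpl5, a lipid transfer protein gene beside Tnfrsf23, averaged 118 CPM in cKO and 78.5 CPM in wild type (0.58 ± 0.13, edgeR adjusted p = 0.00036), and was not called without cKO library 2 (edgeR adjusted p = 0.0537). Snx29, a sorting nexin gene beside Tnfrsf17, had 42.2 and 41.8 CPM in cKO and 61.7 and 71.9 CPM in wild type (−0.66 ± 0.16, edgeR adjusted p = 0.00149). Snx29 was not called without cKO library 2 (0.0699), without wild-type library 2 (0.0852), with housekeeping scaling (0.239) or by DESeq2's test (0.107).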
